A study of Mus musculus with 6 samples.

Results

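The 9 genes described here are markers of the red cell lineage: the embryonic globins Hba-x, Hbb-bh1 and Hbb-y, the transcription factor Klf1, the haem synthesis enzyme Alas2, and the red cell membrane genes Slc4a1, Epb42, Sptb and Icam4. They were taken by annotation, with every probe set named for 1 of these genes and for no other. This gave 17 of the 34945 probe sets named for 1 gene, and 9 of 18193 genes. The arrays hold RNA of whole embryoid bodies, clusters of differentiating mouse embryonic stem cells, made from the Hoxb4i line and harvested on day 6. This line is a single cell line with an integrated tet-on cassette from which doxycycline induces HOXB4, and every sample carries the cassette. Induced embryoid bodies received doxycycline at 2 µg/ml on day 4 for 48 hours, and uninduced embryoid bodies received none. Each group has 3 arrays, labelled as experiments A, B and C, which the series describes as biological replicates, and cells without the cassette given doxycycline are not among the samples. The design asks how gene expression differs after HOXB4 induction, and the shared letters also allow the 3 experiments to be compared with one another.

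Red blood cells first form in the yolk sac from mesoderm that also gives endothelium, and embryoid bodies reproduce this primitive wave in culture. Primitive red cells carry embryonic haemoglobin, whose chains include the alpha-like zeta chain encoded by Hba-x and the beta-like chains encoded by Hbb-bh1 and Hbb-y. GATA1 and the Krüppel-like factor KLF1 switch on globins, haem synthesis and membrane genes in these cells. GATA factors bind the letters GATA in a fixed context, and KLF1 binds GC-rich sites of the CACCC type.

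Promoter windows from RefSeq (build GRCm38.p6) were found for 7 of the 9 genes, each holding 250 bases before the annotated start and 50 after it. They are shown for globin, regulator and haem enzyme genes that the results turn on, with Sptb as a member whose level did not follow the globins. The windows lie at chr11:32276350-32276649 on the plus strand for Hba-x, chr7:103853158-103853457 on the minus strand for Hbb-y, chr8:84901732-84902031 on the plus strand for Klf1, chrX:150547167-150547466 on the plus strand for Alas2 and chr12:76710498-76710797 on the minus strand for Sptb. Capitals mark matches on either strand to AGATAA and its close form TGATAA (both of GATA type), to CCNCNCCC (CACCC type) and to the TATA box letters TATAAA, and neighbouring matches run together.
Hba-x: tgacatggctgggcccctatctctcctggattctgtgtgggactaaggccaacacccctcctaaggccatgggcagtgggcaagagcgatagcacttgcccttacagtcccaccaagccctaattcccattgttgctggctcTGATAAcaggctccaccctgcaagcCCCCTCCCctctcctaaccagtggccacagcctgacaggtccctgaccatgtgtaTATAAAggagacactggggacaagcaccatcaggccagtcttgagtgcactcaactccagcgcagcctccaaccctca
Hbb-y: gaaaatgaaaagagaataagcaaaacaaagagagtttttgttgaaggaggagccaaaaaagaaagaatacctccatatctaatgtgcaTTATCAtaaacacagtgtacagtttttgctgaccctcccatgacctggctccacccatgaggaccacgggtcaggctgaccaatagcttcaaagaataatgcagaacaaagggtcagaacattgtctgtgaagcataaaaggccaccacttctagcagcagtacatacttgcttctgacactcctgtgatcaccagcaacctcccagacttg
Klf1: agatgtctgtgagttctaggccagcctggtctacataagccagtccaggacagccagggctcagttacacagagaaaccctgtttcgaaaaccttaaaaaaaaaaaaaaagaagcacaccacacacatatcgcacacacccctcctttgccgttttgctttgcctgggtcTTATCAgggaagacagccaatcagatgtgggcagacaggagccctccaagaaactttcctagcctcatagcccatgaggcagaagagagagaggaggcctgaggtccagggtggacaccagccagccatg
Alas2: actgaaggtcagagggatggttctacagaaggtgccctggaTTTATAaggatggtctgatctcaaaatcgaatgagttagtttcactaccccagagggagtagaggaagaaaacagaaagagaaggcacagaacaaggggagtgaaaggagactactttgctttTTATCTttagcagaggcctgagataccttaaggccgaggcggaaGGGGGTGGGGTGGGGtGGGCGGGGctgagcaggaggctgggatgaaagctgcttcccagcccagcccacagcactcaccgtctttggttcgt
Sptb: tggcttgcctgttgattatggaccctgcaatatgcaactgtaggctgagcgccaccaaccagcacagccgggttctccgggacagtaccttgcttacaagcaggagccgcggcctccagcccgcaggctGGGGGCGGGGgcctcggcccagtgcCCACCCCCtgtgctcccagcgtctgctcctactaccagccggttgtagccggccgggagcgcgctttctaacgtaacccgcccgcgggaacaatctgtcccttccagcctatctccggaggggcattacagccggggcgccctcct
The Hba-x window holds TGATAA from 108 bases before the start, a CACCC type match from 83 bases before it and TATAAA from 28 bases before it. Hbb-y and Klf1 each hold 1 GATA type match, on the minus strand, beginning 162 and 80 bases before the start. Alas2 holds 4 CACCC type matches close together, from 42 bases before the start, with an AGATAA and a TATAAA match, while Sptb holds 3 CACCC type matches and neither GATA form. The windows of Epb42 and Icam4, not shown, each hold 1 AGATAA match, and neither gene differed between B and A at an adjusted p under 0.05 (limma). A link between these matches and the levels was not tested. Over the 7 windows, AGATAA occurred in 3, TGATAA in 3, CCNCNCCC in 4 and TATAAA in 3. Among 32851 RefSeq windows of the same length the shares were 11.2% for AGATAA, 9.05% for TGATAA, 49.5% for CCNCNCCC and 13.6% for TATAAA. The form TGATAA was added after the windows had been read, so its count is a description only.

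The arrays had median signals of 92.0 to 108.6. On the uninduced array of A the 3' over 5' ratio of the Actb control probe sets was 2.88, where the remaining 5 arrays had 1.26 to 1.48. For the Gapdh controls it was 1.08, where the remaining arrays had 0.834 to 0.903, so this array stands apart in quality. It gave the lowest of the 6 signals on 10 of the 17 member probe sets, beside 23.9% of all tested probe sets. The main differences that involve it are therefore given with and without it. Hoxb4 itself is read by 2 probe sets, whose log2 differences (induced minus uninduced) were 0.55 and 1.87 for C, 0.098 and 0.044 for B, and 1.05 and 0.68 for A. The sources used here do not say whether these probe sets read the cassette transcript.

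The embryonic globins separated the experiments and not the doxycycline groups. All 3 were higher in B than in A, Hba-x by 4.76 and Hbb-bh1 by 4.83 on the log2 scale (27.1- and 28.5-fold), and these 2 genes were lower in C than in B by a similar amount. Fold changes here are on log2(signal + 18.8), an offset that shrinks the change of dim probe sets, and a call means an adjusted p under 0.05 from limma with Benjamini-Hochberg adjustment over all 27022 probe sets tested. Fewer cells of a type and less RNA per cell cannot be told apart in RNA of whole embryoid bodies.

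Hba-x, the zeta chain, had induced and uninduced signals of 224.4 and 221.6 in C, 5037.4 and 7277.8 in B, and 469.8 and 84.0 in A. Both arrays of B lay far above the other 4, and the arrays of C lay between those of A. B exceeded A by 4.76 (95% interval 3.46 to 6.06, adjusted p = 0.00838, limma) and C fell below B by a difference of -4.65 (-5.95 to -3.35, adjusted p = 0.0021, limma). C and A differed by 0.11 (-1.19 to 1.41, adjusted p = 0.921, limma).

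Hbb-bh1, the beta-like chain typical of the earliest primitive red cells, was read by 3 probe sets with the same order of experiments. The brightest had induced and uninduced signals of 920.4 and 1096.1 in C, 20436.5 and 27950.9 in B, and 2295.7 and 285.5 in A. The groups of experiment B and the rest did not overlap, while the A pair spanned both arrays of C. B exceeded A by 4.83 (3.24 to 6.43, adjusted p = 0.0141, limma), C over B was -4.55 (-6.14 to -2.95, adjusted p = 0.00589, limma), and C over A was 0.29 (-1.31 to 1.88, adjusted p = 0.824, limma). The other 2 probe sets gave 4.52 and 5.07 for B over A (adjusted p = 0.0209 and 0.0204, limma) and -4.43 and -4.69 for C over B. Ordered by B over A among all tested probe sets, those of Hbb-bh1 took ranks 1, 2 and 8 and Hba-x rank 4.

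Hbb-y, the epsilon-like chain, followed a partly different order. On its brightest probe set the induced and uninduced signals were 118.8 and 99.6 in C, 255.0 and 894.5 in B, and 1.1 and 2.9 in A. Both arrays of B were again the highest, but both of C lay above both of A, whose values lay far below the offset. B exceeded A by 4.59 (3.37 to 5.81, adjusted p = 0.00784, limma), and C exceeded A by 2.62 (1.40 to 3.84, adjusted p = 0.0314, limma). C over B was -1.97 (-3.19 to -0.75) and did not pass (adjusted p = 0.0567, limma). With A below the offset, the sizes depend on that offset and are no measured folds: B over A was 7.39 with an offset of 1 and 3.13 with one of 60.7, called in both. C over A was 5.26 and 1.44 with these offsets, and with the higher one it was not called (adjusted p = 0.0713, limma). That call was also lost without the filter (adjusted p = 0.0519, limma), without the variance trend, and without either array of C. A second probe set had 59.9 and 141.3 in C, 195.4 and 943.6 in B, and 15.5 and 1.9 in A, with a C over A difference of 2.07 that did not pass (adjusted p = 0.0863, limma). The third, too dim to be tested, had 13.2 and 12.0 in C, 24.6 and 108.8 in B, and 3.9 and 2.5 in A. With all probe sets kept, its B over A difference of 1.76 was not called (adjusted p = 0.148, limma). Its C over A difference was 0.51 (adjusted p = 0.634, limma).

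**Figure D1:**
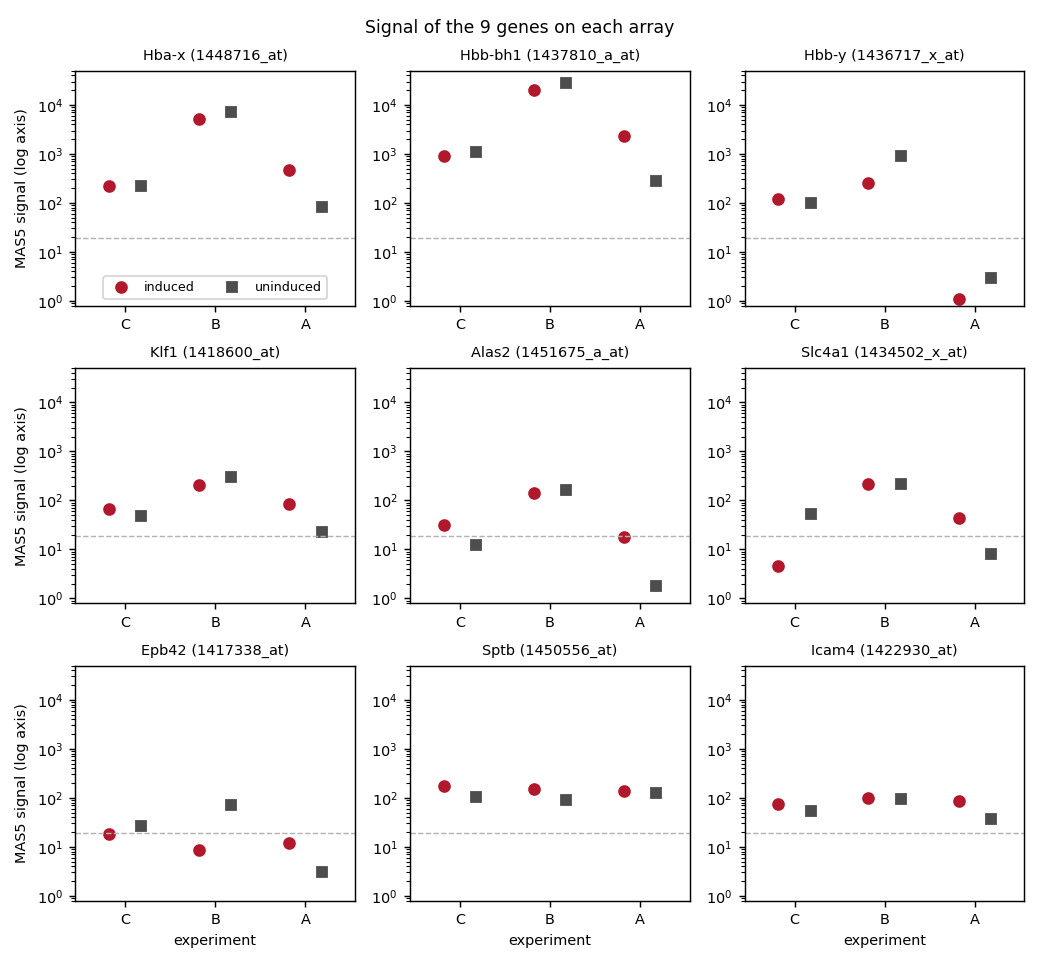
Signal of each gene's brightest probe set (log axis) on each array, by experiment C, B and A along the x axis. Red circles are induced and grey squares uninduced arrays, and the dashed line is the offset of 18.8. Hba-x and Hbb-bh1 reach 5037.4 to 27950.9 in B and stay at or below 2295.7 elsewhere, while Sptb lies between 88.1 and 174.3 throughout.

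The regulator Klf1 and the haem enzyme Alas2 lay near the threshold in B over A, and whether each passed depended on the setting. Alas2, the erythroid form of the first enzyme of haem synthesis, had induced and uninduced signals of 31.5 and 12.4 in C, 142.4 and 165.6 in B, and 18.1 and 1.8 in A. Both arrays of B lay above the other 4. B over A was 2.64 (1.37 to 3.91, adjusted p = 0.0426, limma). Both signals of A lie below the offset, so the size is no measured fold: it was 4.40 with an offset of 1 (adjusted p = 0.0986, limma) and 1.61 with one of 60.7 (adjusted p = 0.0257, limma). The call was also lost without the variance trend (adjusted p = 0.0589, limma), and with 1 array of B left out (0.108 without the induced, 0.491 without the uninduced one). For Alas2, C over B was -2.12 (-3.39 to -0.85, adjusted p = 0.0506, limma). Klf1 had 65.2 and 48.1 in C, 202.4 and 304.0 in B, and 83.5 and 22.8 in A, so B was again the highest without overlap. Its B over A difference was 2.03 (0.88 to 3.19, adjusted p = 0.0647, limma). It passed with the offset of 60.7 (adjusted p = 0.0481, limma) and without the doxycycline term (adjusted p = 0.0470, limma). Without the induced array of A the difference was 2.74, and without the uninduced array of A 1.33. Its C over B difference was -1.83 (-2.99 to -0.68, adjusted p = 0.0598, limma).

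The membrane genes divided. Slc4a1 encodes band 3, the anion exchanger of the red cell, and had induced and uninduced signals of 4.6 and 51.6 in C, 211.5 and 212.8 in B, and 43.6 and 7.9 in A. Both arrays of B were highest, with a B over A difference of 2.50 (0.94 to 4.06, adjusted p = 0.0824, limma) and a C over B difference of -2.51 (-4.07 to -0.94, adjusted p = 0.0582, limma). Of its dimmer probe sets, which were not tested, 1 had 75.0 and 21.8 in C, 116.3 and 91.2 in B, and 9.6 and 12.7 in A, and the other stayed between 2.4 and 5.1. Sptb, the beta spectrin of the red cell skeleton, had 174.3 and 105.8 in C, 149.5 and 88.1 in B, and 140.4 and 123.1 in A. Its experiments overlapped, and B over A was -0.16 (-0.97 to 0.64, adjusted p = 0.808, limma). Icam4, an adhesion molecule of red cells and their precursors, had 73.9 and 53.8 in C, 100.8 and 96.6 in B, and 85.3 and 37.0 in A. The arrays of B were the highest by a small margin, and B over A was 0.62 (-0.39 to 1.64, adjusted p = 0.418, limma). Epb42, or protein 4.2, which ties band 3 to the skeleton, was too dim to be tested: its brightest probe set had 18.4 and 26.9 in C, 8.5 and 70.0 in B, and 11.7 and 3.1 in A. With all probe sets kept, the B over A difference of that probe set was 0.93 (-0.35 to 2.21, adjusted p = 0.455, limma). A dimmer Epb42 probe set had 3.6 and 5.9 in C, 46.7 and 39.9 in B, and 19.0 and 11.1 in A, with both arrays of B highest. Without the filter, its B over A difference was 0.88 (adjusted p = 0.339, limma) and its C over B difference -1.40 (adjusted p = 0.113, limma).

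Counted over genes, 8 of the 9 had a tested probe set. The 3 globins and Alas2 were called in the F test over the experiments (4 of 8, beside 11.6% of all tested probe sets), and the same 4 were called higher in B over A (background 2.09%). In C over A only Hbb-y was called, and it was higher (background 2.52%), while in C over B Hba-x and Hbb-bh1 were called lower (background 5.26%). The median difference of the 8 genes was 2.57 for B over A, beside -0.083 for all tested probe sets, 0.16 beside -0.0059 for C over A, and -2.05 beside 0.069 for C over B. Both arrays of B lay above the other 4 on 13 of the 17 member probe sets (background 12.2% of tested probe sets), including 3 of the 5 that were too dim to be tested. A probe set that is bright in B alone can pass the filter on the mean through B. For this reason all 9 genes were also tested without the filter. Then 4 were called in B over A, 0 in C over A and 2 in C over B. The share of all probe sets called in that fit is not given here. The median difference of the 9 genes in B over A was then 2.50, beside -0.015 for all 45037 probe sets. The experiment accounted for 80.6% to 93.2% of the sum of squares of Hba-x, Hbb-bh1, Hbb-y, Klf1, Alas2 and Slc4a1, for 36.5% of that of Epb42, 48.8% of Icam4 and 10.2% of Sptb, beside a median of 65.7% over tested probe sets. For the dimmer Epb42 probe set this share was 96.2%.

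**Figure D2:**
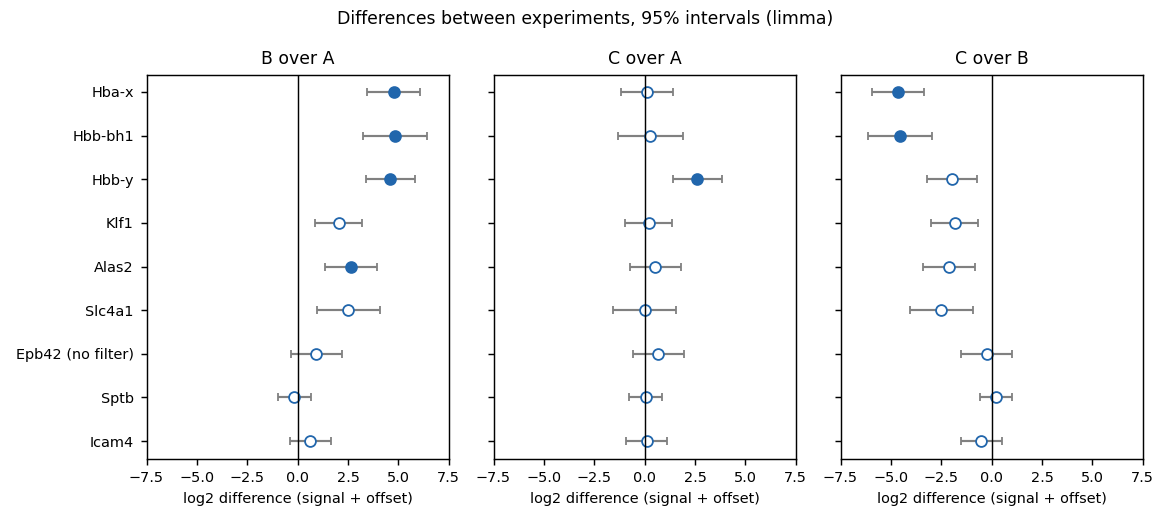
Log2 difference of each gene between experiments (signal + offset), with 95% intervals from limma, for B over A, C over A and C over B. Filled points have an adjusted p under 0.05, and Epb42 comes from the fit without a filter. Hba-x and Hbb-bh1 lie above 4.7 in B over A and below -4.5 in C over B, while the interval of Sptb includes 0 in each panel.

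Without the uninduced array of A, the differences of B over A were smaller, at 3.51 for Hba-x, 3.19 for Hbb-bh1, 4.27 for Hbb-y, 2.35 for Alas2 and 1.33 for Klf1. The differences of C over A for Hba-x and Hbb-bh1 changed sign, to -1.14 and -1.35. Without the induced array of A instead, they were 1.36 and 1.92. The direction of these genes in C over A thus depends on which array of A is kept. In both of these fits Hbb-y lay higher in C over A, at 2.30 and 2.94. Each fit rests on 5 arrays, with the lone array of A assumed to vary like the others, so its calls are not given. C over B does not use the arrays of A in its difference, which stayed at -4.65 for Hba-x and -4.55 for Hbb-bh1.

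Many markers of other cell types also differed between the experiments. Of 10 endothelial markers, all tested, 10 lay higher in B over A and 5 were called (Tek, Pecam1, Cdh5, Cd34 and Egfl7), with a median of 2.24, and 10 lay lower in C over B with 8 called and a median of -2.82 (backgrounds 2.09% and 5.26%). Without the uninduced array of A, all 10 still lay higher in B over A, with a median of 1.57. Their summed signal was 1003.1 in the induced and 1366.3 in the uninduced array of C, 8505.4 and 7658.8 in B, and 2619.5 and 1249.1 in A. Endothelial signal was thus highest in B, where the globins were highest. Of 5 mesenchyme markers, 4 were called higher in B over A, and their summed signal was 2426.8 and 2039.0 in C, 13804.3 and 13916.1 in B, and 2330.2 and 2453.1 in A. Without the uninduced array of A, 4 lay higher and 1 lower in B over A, with a median of 3.27. Of the 6 regulators of early blood (Gata2, Runx1, Tal1, Lmo2, Fli1 and Etv2), only Fli1 was called higher in B over A, at 1.90, and Tal1 and Fli1 were called lower in C over B. All 6 lay higher in B over A (median 0.49). Without the uninduced array of A, 2 lay higher and 4 lower, with a median of -0.023. Neural markers ran the other way: all 6 lay lower in B over A (median -1.89), with Sox1, Sox2 and Pax6 called (3 of 6, beside 1.91% of tested probe sets), and 5 of 6 were called higher in C over B (beside 4.33%). Their summed signal was 8120.2 and 9228.9 in C, 444.6 and 705.3 in B, and 3606.9 and 6151.1 in A. Of 8 visceral and definitive endoderm markers, 3 were called higher (Ttr, Apoa1 and Rbp4) and 3 lower (Afp, Foxa2 and Amn) in B over A, and 5 lower in C over B. Cardiac markers had 1 of 6 called higher in B over A and 3 lower in C over B, and of 5 pluripotency markers 0 were called in B over A and 3 were called higher in C over B. Only 3 of 9 macrophage markers and 3 of 6 megakaryocyte markers were bright enough to be tested, and none was called in B over A. No marker had a signal of exactly 0; the lowest endothelial values were 5.2 for Tie1 on the induced array of C and 7.8 for Pecam1 on the uninduced array of A. Whether the cell mixture of the embryoid bodies sets the globin difference was not tested.

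The adult globins are no members. Probe sets named for Hba-a1 or Hbb-b2 alone were too dim to be tested, and the tested probe set of Hba-a2 alone had 113.3 and 112.7 in C, 78.8 and 104.6 in B, and 128.2 and 47.6 in A. Its experiments overlapped, with a B over A difference of 0.15 (adjusted p = 0.870, limma). Probe sets shared by several adult globins gave another picture. A probe set shared by Hba-a1 and Hba-a2, the adult alpha globins, had induced and uninduced signals of 389.5 and 517.5 in C, 6319.6 and 10533.9 in B, and 855.8 and 119.7 in A. The pattern matched that of Hba-x, and B over A was 4.55 (adjusted p = 0.016, limma). A probe set shared by the adult beta globins had 189.7 and 122.2 in C, 814.3 and 1624.0 in B, and 113.5 and 87.6 in A, with a B over A difference of 3.30 (adjusted p = 0.00838, limma). Closely related globins can bind the same probes, so the levels of single globins are uncertain to that extent.

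A list of 66 other erythroid, haem and iron genes shows how far the difference between experiments extended. Of these, 41 had a tested probe set. In B over A, 35 lay higher and 6 lower, with a median of 0.41, but only Nfe2 was called. Nfe2, a globin gene activator, had 24.4 and 48.2 in C, 230.9 and 229.5 in B, and 23.6 and 6.1 in A, with a B over A difference of 2.94 (adjusted p = 0.0253, limma). In C over B, 27 lay lower and 14 higher, with a median of -0.63, and 9 of the 41 were called lower. The backgrounds are 2.09% for calls higher in B over A and 5.26% for calls lower in C over B, so the 1 call in B over A is near its background. These counts depend on single arrays. Without the uninduced array of A, 33 lay higher and 8 lower in B over A, with a median of 0.25.

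By role, all 13 tested regulators lay higher in B over A, with a median of 0.74. Gata1, the master regulator of red cell genes, had 104.6 and 143.1 in C, 243.6 and 207.4 in B, and 81.1 and 45.2 in A, and its B over A difference of 1.61 did not pass (adjusted p = 0.0613, limma). In C over B, the regulators Tal1 (-3.79), Nfe2 (-2.21) and the GATA1 cofactor Zfpm1 (-2.05) were called lower. So were the membrane genes Tmod1 (-2.05), which caps actin, Gypc (-1.78), a glycophorin, and Mpp1 (-0.91). The enzymes called lower were biliverdin reductase Blvrb (-2.17), carbonic anhydrase Car2 (-1.02) and catalase Cat (-0.75). Of 7 haem synthesis genes other than Alas2, 5 lay higher in B over A and none was called in the F test or in C over B. In C over A, the transferrin receptor Tfrc was called higher, at 0.95 (adjusted p = 0.0272, limma), and Zfpm1, Cpox, Blvrb and Cat were called lower (4 of 41, beside 4.29% of all tested probe sets), with differences of -1.84, -1.37 and -1.35 for the first 3.

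**Figure D3:**
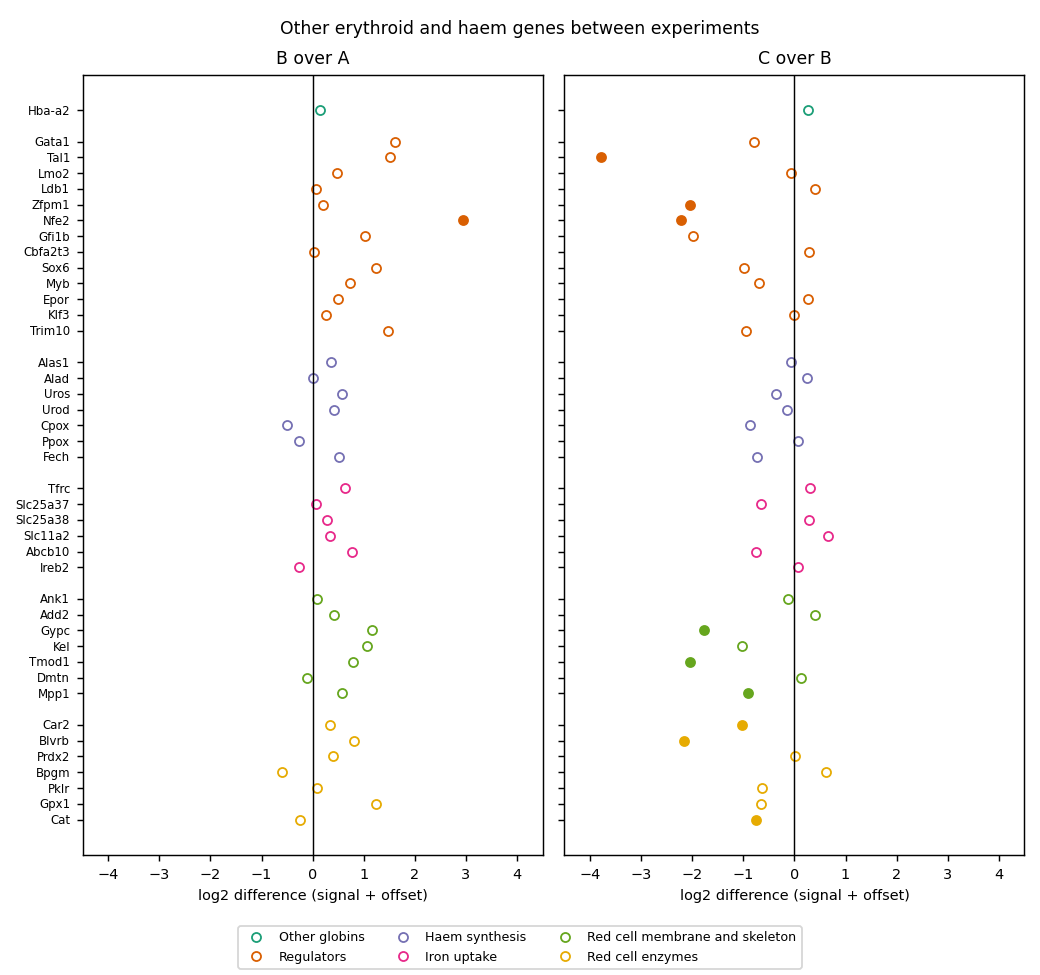
Log2 difference (signal + offset) of the 41 tested erythroid, haem and iron genes other than the members, for B over A and C over B, coloured by role. Filled points have an adjusted p under 0.05. Most points lie right of 0 in B over A (35 of 41) and left of 0 in C over B (27 of 41), and 1 and 9 are filled.

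No member was called with doxycycline. Of the 8 tested genes, 0 passed in limma, and 0 reached an unadjusted p under 0.05, with or without the experiment letter as a block. Over all tested probe sets 0% were called in either fit, and 138 (no block) and 1065 (block) probe sets had an unadjusted p under 0.05. The median difference of the 8 genes, induced over uninduced, was 0.44, beside 0.0091 for all tested probe sets. This fit counts the differences between experiments as spread. The difference of Hba-x was 0.58 (-3.28 to 4.44), that of Hbb-bh1 0.74 (-3.19 to 4.67) and that of Hbb-y -0.55 (-3.84 to 2.74). For Klf1 it was 0.36 (-1.44 to 2.16), for Alas2 0.45 (-1.68 to 2.57) and for Slc4a1 -0.12 (-2.45 to 2.21). These intervals hold changes of several-fold in either direction. With the letter as a block they were narrower, at -0.48 to 1.64 for Hba-x, -0.56 to 2.04 for Hbb-bh1, -1.54 to 0.45 for Hbb-y, -0.58 to 1.30 for Klf1, -0.59 to 1.48 for Alas2 and -1.40 to 1.15 for Slc4a1, and each still included 0. In the unblocked fit that leaves out the uninduced array of A, the differences turned to -0.65 for Hba-x and -0.66 for Hbb-bh1, and 0 members were called. With the block they were -0.26 and -0.35. With the block and without either array of A, 2 member probe sets that do not represent their gene were called lower with doxycycline: 1 of Hbb-bh1, at -0.59 (adjusted p = 0.00202 with the uninduced and 0.00370 with the induced array left out, limma), and 1 of Hbb-y, at -1.60 (adjusted p = 0.00973 and 0.0154, limma). In these fits, which in effect compare the arrays of B and C alone, 0.929% and 0.977% of all tested probe sets were called. Within a probe set their spread rests on 2 pairs of arrays, with the rest taken from all tested probe sets. These adjusted p-values are uncertain to that extent. Of the 41 other erythroid genes, 0 were called and 0 reached an unadjusted p under 0.05 in limma without the block. With the block 0 were called and Ldb1 and Zfpm1 reached it. With the block and without the uninduced array of A, Zfpm1 was called higher.

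Within the experiments, where each value is 1 induced array against 1 uninduced array and has no test, the globins differed in direction. Hba-x differed by 2.25 in A, -0.53 in B and 0.02 in C, and Hbb-bh1 by 2.93 in A, -0.45 in B and -0.25 in experiment C. The difference of Hbb-y was -0.12 for A, -1.74 for B and 0.22 for C, again with mixed signs. Positive differences of Hba-x and Hbb-bh1 thus lie mainly in A, whose uninduced array has the deviating control ratios. Over 2-fold higher in A were Hba-x, Hbb-bh1, Klf1 and Slc4a1 (4 of 9 genes, beside 6.27% of tested probe sets). In B and in C 0 genes were over 2-fold higher (beside 2.34% and 3.45%). Over 2-fold lower were Hbb-y and Epb42 in B (beside 1.93%) and Slc4a1 in C (beside 2.88%). By sign alone, 8 of the 9 genes were higher with doxycycline in A, 6 in C and 2 in B. The share of all tested probe sets that were higher by sign is not given here. Averaged over the 9 genes, the differences came to 1.11 for A, -0.50 for B and 0.011 for C. Their medians were 0.90 for A, -0.45 for B and 0.22 for C. For all tested probe sets the medians were -0.045, 0.0080 and 0.018.

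**Figure D4:**
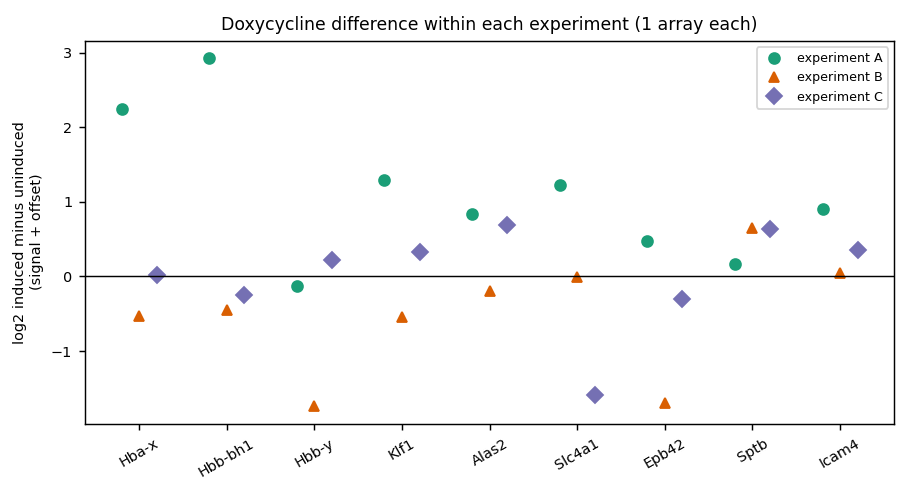
Log2 difference (signal + offset), induced minus uninduced, of each gene in experiments A, B and C, 1 pair of arrays per point. Hba-x and Hbb-bh1 lie at 2.25 and 2.93 in A and between -0.53 and 0.02 in B and C, while Sptb and Icam4 lie above 0 in each experiment.

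Sptb and Icam4 were the 2 genes whose difference had 1 sign in all 3 experiments. The share of all tested probe sets with 1 sign throughout is not given here, so this count is a description only. Sptb averaged 154.7 ± 17.5 in induced and 105.7 ± 17.5 in uninduced embryoid bodies (SD, n = 3 each). Every induced array lay above every uninduced array, which held for 1 of the 17 member probe sets (background 2.24%). Its log2 difference was 0.48 (-0.22 to 1.19) and did not pass (adjusted p = 1.00 in limma, and 0.930 with the block). A second Sptb probe set had induced signals of 67.4, 78.4 and 92.2 in A, B and C, against uninduced signals of 176.7, 56.3 and 86.4, and its difference ran the other way, at -0.24. Icam4 differed by 0.90 in A, 0.05 in B and 0.35 in C, and its difference over all arrays was 0.43 (-0.49 to 1.36, adjusted p = 1.00, limma).

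Across the 6 arrays, the log2 signal of Hba-x correlated with that of Hbb-bh1 at r = 0.996, Klf1 at 0.986, Alas2 at 0.960, Slc4a1 at 0.942, Icam4 at 0.874 and Hbb-y at 0.773. Epb42, on its brightest probe set, correlated with it at 0.543 and Sptb at -0.284. These are descriptions over 6 arrays that fall into 3 experiments. Without the uninduced array of A the same correlations were 0.999 for Hba-x, 0.979 for Klf1, 0.942 for Alas2, 0.929 for Slc4a1, 0.821 for Icam4, 0.668 for Hbb-y, 0.331 for Epb42 and -0.406 for Sptb.

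Among 368 of 12452 genes that varied at least as much as the median member (SD of log2 signal of 1.30), those most like the mean standardised profile of the 9 genes over the 6 arrays were Pecam1 (Pearson's r = 0.974), Arhgdib (0.970), Rhoj (0.969), Hapln1 (0.960) and Kcne3 (0.957), followed by Hoxc8, Reln, Col3a1, Slc38a4 and Csrp1 (0.955 to 0.947). Pecam1, an adhesion molecule of endothelium, had 57.2 and 86.3 in C, 819.3 and 690.1 in B, and 105.3 and 7.8 in A. Most like Hbb-bh1 alone were Slc38a4 (0.991), Pecam1 (0.989), Icam2 (0.983), Reln (0.983) and Hoxd8 (0.980). The order depends on 1 array: without the uninduced array of A, 1 of the first 10 genes (Hapln1) was again among the first 10, and 0 of the 5 most like Hbb-bh1 were again among the first 5. The SD bound was set anew for this, and Slc38a4 and Reln fell below it. The rest of the first 10 kept r of 0.911 to 0.986. Pecam1, Icam2 and Hoxd8 kept r of 0.987, 0.986 and 0.992 with Hbb-bh1.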

How the data were processed

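RNA of 6 embryoid body samples was hybridized to Affymetrix mouse whole-genome arrays, per the labels' protocols. The deposited value is a linear intensity for each probe set on each array, made with MAS5 per the submitters' processing notes, whose version is not given in the sources used here and which come without detection calls. Each array's mean, with 2% trimmed from both ends, came to 500, which shows that the authors had scaled the arrays to a common target, and nothing more was normalized. The number of arrays limits the precision.

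The values were taken as log2(signal + 18.8), where 18.8 is the 20th percentile. Of 45037 probe sets that are no Affymetrix controls (64 controls were left out), 27022 had a mean of at least the 40th percentile (60.5) and were tested. Gene names come from GEO's platform annotation, with symbols updated through a RefSeq gene table: 34945 probe sets had 1 gene (34741 with a current symbol), 932 several and 9160 none. The tested probe set with the highest mean represents a gene. Annotated adult globin probe sets of several genes are given apart.

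Differences between experiments came from limma 3.58.1 (R 4.3.3) with doxycycline as a term, and those between doxycycline groups without the block (empirical Bayes with trend, two-sided, threshold 0.05, Benjamini-Hochberg over 27022). Arrays with one letter share an experiment per the labels, and deviations from the group means correlated at 0.445, 0.671 and 0.660 between arrays of A, B and C, so the letters pair the arrays. P-values between experiments rest on how the induced minus uninduced difference varies from pair to pair, since no experiment was repeated. They do not measure a spread between repeats of an experiment. P-values of doxycycline without the block rest on the spread of the arrays within each doxycycline group. The fits were also run on simulated data with known changes added. Unlike these arrays, the simulated ones held no other differences between experiments. They do not show how well the unblocked doxycycline fit finds changes here. Alternatives were the offset, the filter, quantile normalization, the variance trend, the block or doxycycline term, the choice of probe set, and leaving out arrays or experiments. The members and lists were chosen with earlier results of these data known. Named genes are the members, up to 3 of each erythroid subgroup with the smallest F test p, the 10 and 5 genes most like the members and Hbb-bh1, Hoxb4 and Actb. Gata1, Ldb1, the adult globins and the marker genes named were chosen after their values were seen.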

Additional observations from a re-analysis of the deposited data

Results flagged for a closer look

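The difference with doxycycline within an experiment moved one way in A and the other way in B or C for 5 of the genes, on every tested probe set of the gene, with over 1 log2 unit between the experiments. Each experiment holds 1 pair of arrays, so the differences between experiments were not tested. For Hba-x the difference in A exceeded that in B by 2.78. For Hbb-bh1 the difference in A exceeded that in B by 3.38 and that in C by 3.17. Klf1 had a difference in A that exceeded that in B by 1.84, and for Alas2 this gap was 1.03. For Slc4a1 the difference in A exceeded that in B by 1.23 and that in C by 2.81. Each of these gaps involves the uninduced array of A, whose Actb 3' to 5' ratio was 2.88 against at most 1.48 elsewhere, and its part in them was not tested.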

How the results depend on the processing

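With 3 arrays a group and 2 an experiment, only large differences between experiments could pass, and no doxycycline difference of a gene's representative probe set did in the settings tried one at a time (0 members and 0 of the erythroid list, also with the replicate block). Leaving out either array of A with the block was chosen after seeing the data. It called 1 further probe set each of Hbb-bh1 and Hbb-y lower, at -0.59 and -1.60. The block with any other array left out called no member probe set. Without the uninduced array of A, the block also called Zfpm1 of the erythroid list higher. Without the variance trend 0 members were called in B over A (against 4) and 0 in C over A (against 1). In C over A 0 were also called with the offset at the 40th percentile or with no filter. In C over B 6 were called with that offset, 5 after quantile normalization and 6 without the doxycycline term, against 2. Of the erythroid list, the F test called 4 without the trend (against 7). B over A called 0 with an offset of 1, 0 with the stricter filter, 0 without the trend, 2 after quantile normalization and 3 without the doxycycline term, against 1. C over A called 0 without the trend, against 5, and C over B called 5 with no filter and 4 without the trend, against 9. Leaving out 1 array, with its partner assumed to vary like the others, gave 3 to 6 members in the F test, 3 to 6 in B over A, 0 to 3 in C over A and 2 to 6 in C over B. For the erythroid list the ranges were 3 to 26, 0 to 20, 1 to 16 and 3 to 20. The call of Alas2 in B over A was lost with an offset of 1 (adjusted p = 0.0986, limma) and without either array of B (adjusted p = 0.108 and 0.491). The share of all tested probe sets called under each of these settings is not given here. The counts therefore show only how far the calls depend on the setting. The cause of these changes was not tested.

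Signs turned as follows. Without experiment A, the doxycycline difference was -0.26 for Hba-x, -0.35 for Hbb-bh1 and -0.11 for Klf1; without B it was 0.046 for Hbb-y, and without C 0.61 for Slc4a1. With the probe set of largest SD, Sptb gave -0.24 with doxycycline and -0.26 in C over A. In C over A, quantile normalization gave -0.0059 for Klf1 and -0.10 for Icam4, and the offset at the 40th percentile 0.018 for Slc4a1. With 1 array left out and no block, doxycycline differences ranged from -0.71 to 2.42 (Hba-x), -0.66 to 2.60 (Hbb-bh1), -1.86 to 0.84 (Hbb-y), -0.25 to 1.23 (Klf1), -0.19 to 1.40 (Alas2) and -0.99 to 0.68 (Slc4a1). An array left out unbalances the groups, so these differences also carry differences between experiments. With the block, Hba-x differed by -0.26 without either array of A, 1.13 without either of B and 0.86 without either of C. For Hbb-bh1 these values were -0.35, 1.34 and 1.24. C over A ranged from -1.14 to 1.36 (Hba-x), -1.35 to 1.92 (Hbb-bh1), -0.50 to 0.90 (Klf1), -1.11 to 1.09 (Slc4a1), -0.19 to 0.28 (Sptb) and -0.24 to 0.45 (Icam4), and B over A of Sptb from -0.40 to 0.075. B over A and C over B kept their direction for Hba-x, Hbb-bh1, Hbb-y, Klf1, Alas2, Slc4a1 and Icam4 under every alternative run.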
